A study of Mus musculus with 8 samples.

Results

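Transcripts of 10 genes of glucose uptake and glycolysis were examined in mouse splenic germinal centre B cells that carried 1 or 2 intact copies of Smarca4, the gene of a SWI/SNF chromatin remodelling ATPase also known as Brg1. The genes are Slc2a1, Slc2a3, Hk1, Hk2, Pfkl, Aldoa, Gapdh, Tpi1, Pkm and Ldha. They were found by symbol, as every row of the deposited count table whose Ensembl identifier maps to one of the 10 symbols. This gave 11 of 55421 identifiers, because 2 identifiers carry the symbol Aldoa. The study asked what loss of 1 Smarca4 copy does to gene expression in these cells. It holds 4 groups of 2 libraries: Smarca4+/- CC, Smarca4+/+ CC, Smarca4+/- CB and Smarca4+/+ CB, where CB is read as centroblasts of the dark zone and CC as centrocytes of the light zone. All mice were C57BL/6, aged 8 to 10 weeks, and cells were taken on day 10 after immunization. Total RNA of PNA MicroBead-isolated cells, depleted of ribosomal RNA, was sequenced in bulk. The sources used here do not say how the Smarca4 allele was lost, how the fractions were separated, or whether libraries of a group came from separate mice or pools. Every p below therefore rests on the variation among libraries, and that variation may be technical.

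Glucose enters a B cell through facilitative transporters of the GLUT family, is trapped by a hexokinase as glucose 6-phosphate, and is committed to glycolysis by phosphofructokinase. Aldolase then splits the sugar, triosephosphate isomerase interconverts the products, glyceraldehyde-3-phosphate dehydrogenase starts the stage that yields ATP, and pyruvate kinase ends it. Lactate dehydrogenase turns the pyruvate into lactate and restores the NAD that the pathway consumes. Germinal centre B cells are among the fastest dividing cells of the body, and Myc and hypoxia-inducible factor are textbook activators of many genes of the pathway.

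Library totals were 676852 and 837558 counts in Smarca4+/- CC, 526353 and 589802 in Smarca4+/+ CC, and 18357578 to 24341805 in the 4 CB libraries, a ratio of the CB to the CC mean of 32.7. The replicates correlated across genes at 0.751 and 0.738 in the CC groups and at 0.979 and 0.964 in the CB groups. Smarca4 itself averaged 277 ± 46.9 CPM (SD, n = 2) in Smarca4+/- CC and 319 ± 4.35 in Smarca4+/+ CC, and 718 ± 22.6 in Smarca4+/- CB and 950 ± 74.0 in Smarca4+/+ CB. The lower heterozygote means match the labels in direction, but neither difference passed the test (edgeR adjusted p = 0.607 in CC and 1 in CB). The log2 fold change was -0.20 in CC (SE 0.18) and -0.40 in CB (SE 0.17, edgeR unadjusted p = 0.0359). In CB edgeR called 0% of all genes tested, and 0.646% had an unadjusted p under 0.05. Smarca4 in CC differed from CB by -1.37 in Smarca4+/- and -1.58 in Smarca4+/+ (edgeR adjusted p = 0.00318 and 0.00119). All 5 dark zone markers, such as Cxcr4 and Foxo1, had lower fitted levels in CC than in CB in both genotypes, and 4 passed the test (edgeR adjusted p under 0.05) in Smarca4+/- and 5 in Smarca4+/+. All 5 light zone markers, such as Cd83 and Cd86, had higher fitted levels in CC in both genotypes, and 3 passed in Smarca4+/- and 1 in Smarca4+/+. Markers of other cell types were also higher in CC: 13 and 12 of 14 macrophage genes, 4 and 7 of 10 T cell genes and 6 and 7 of 9 red cell genes passed the test in Smarca4+/- and Smarca4+/+.

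Levels are given as CPM, counts put on a common library size by TMM scaling, and a gene passed the test when edgeR's quasi-likelihood test gave a Benjamini-Hochberg adjusted p under 0.05 over the 12997 genes tested. All 10 genes passed the filter on low counts. The second Aldoa identifier (ENSMUSG00000114515.2), a locus next to and upstream of the main one, had 0 counts in the 4 CC libraries, 10 and 31 in Smarca4+/- CB and 4 and 6 in Smarca4+/+ CB, and was not tested. On the plot of levels by library the CC pairs lie farther apart than the CB pairs for most genes, and the highest count behind a CC value of either transporter was 34.

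**Figure D1:**
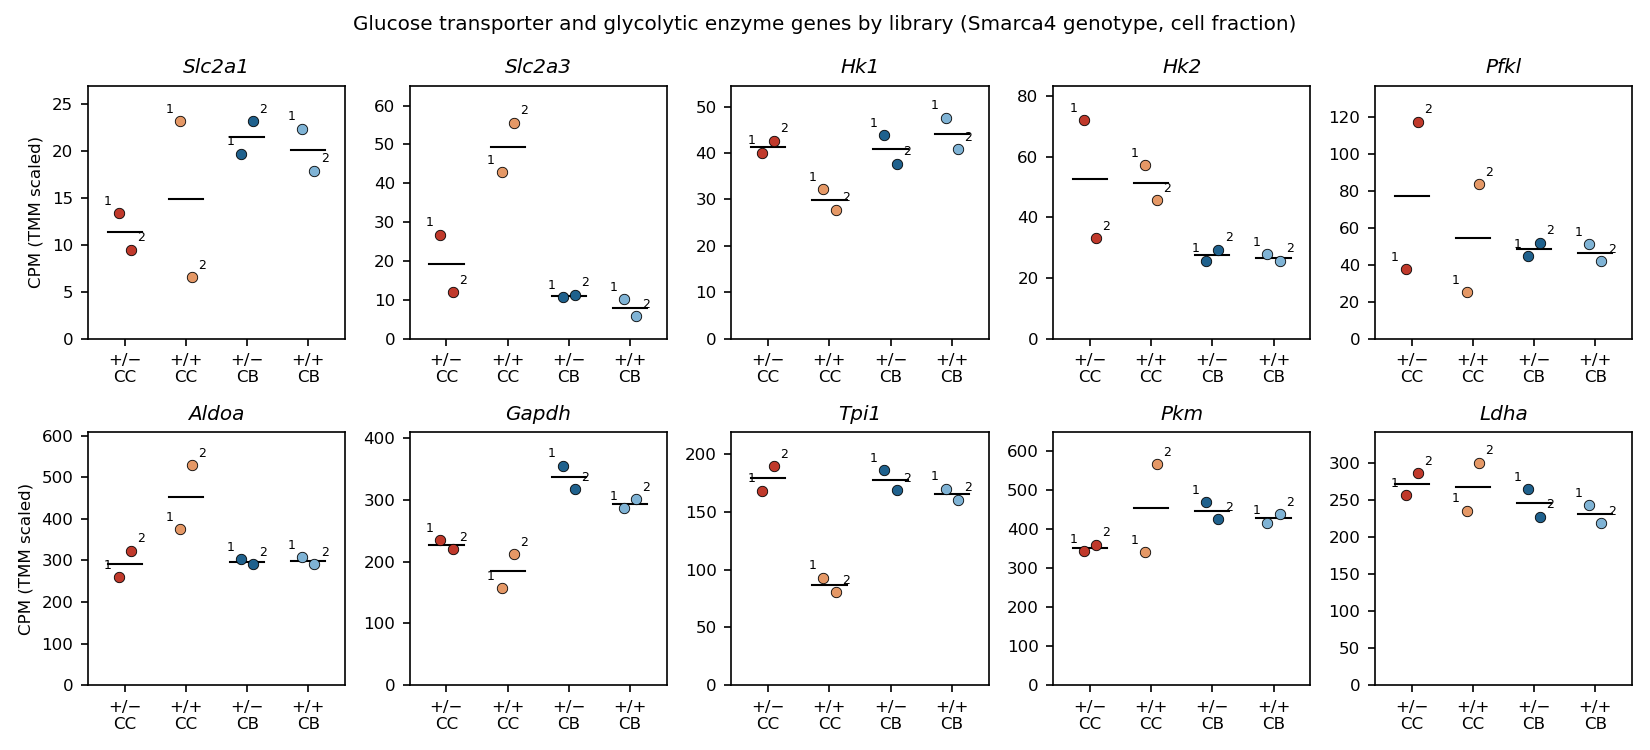
TMM-scaled CPM (y axis, from 0) of the 10 genes in each library, numbered by replicate, with the mean of the 2 libraries as a bar, by Smarca4 genotype and cell fraction. Slc2a3 stood highest in the 2 Smarca4+/+ CC libraries (42.9 and 55.6 CPM) and Tpi1 lowest in the same libraries (92.9 and 80.1 CPM).

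Per kilobase of the deposited gene length, the genes fell into 2 tiers in every group. The enzymes Aldoa, Pkm, Gapdh, Ldha and Tpi1 had group means of 31.4 to 155 CPM per kb, and Pfkl, Slc2a1, Hk1, Hk2 and Slc2a3 had 1.10 to 11.6 CPM per kb. On this measure Aldoa was the highest of the 10 in each group, with means of 100 CPM per kb in Smarca4+/- CC, 155 in Smarca4+/+ CC, 102 in Smarca4+/- CB and 103 in Smarca4+/+ CB, and in none of them did its libraries overlap those of the next gene. In Smarca4+/- CC the order below Aldoa was Ldha, Pkm, Tpi1 and Gapdh, and only the neighbours Pkm and Tpi1 overlapped. In Smarca4+/+ CC it was Pkm, Ldha, Gapdh and Tpi1, with Pkm and Ldha overlapping. In Smarca4+/- CB it was Pkm, Gapdh, Ldha and Tpi1, where Pkm overlapped Gapdh and Gapdh overlapped Ldha, and in Smarca4+/+ CB the order was the same with overlap of Gapdh and Ldha alone. In the lower tier of the CB groups Slc2a3 was last, at 1.52 CPM per kb in Smarca4+/- and 1.10 in Smarca4+/+, below Hk2 and without overlap. In Smarca4+/+ CC the lower tier was Hk2, Pfkl, Slc2a3, Slc2a1 and Hk1, each overlapping its neighbour. These orders depend on the deposited length, which was 2911 bases for Aldoa, 4133 for Gapdh and 5001 for Pkm. As mean CPM without the length, Pkm and Aldoa stood at 446 and 297 in Smarca4+/- CB and 426 and 300 in Smarca4+/+ CB. In CC they stood at 351 and 292 in Smarca4+/- and at 453 and 452 in Smarca4+/+. Summed over the 10 genes, the level was 1453 and 1595 CPM in Smarca4+/- CC, 1381 and 1908 in Smarca4+/+ CC, 1720 and 1584 in Smarca4+/- CB and 1582 and 1541 in Smarca4+/+ CB. The genotypes overlapped in CC and were next to each other without overlap in CB, and the fractions overlapped in both genotypes.

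The start sites of 3 genes are shown because Myc, a factor known to bind the E-box letters CACGTG, was higher in CC (below), and because the core letters ACGTG or GCGTG are those that hypoxia-inducible factor is known to bind. RefSeq promoters of GRCm38.p6, from 250 bases before to 50 after a start, exist in the table used for 9 of the 10 symbols, in 14 entries, with Slc2a3 the symbol without one. CACGTG stood in 1 of the 14, an entry of Ldha, against 7.15% of all 32851 promoters of that length. ACGTG or GCGTG, on either strand, stood in 10 of 14, against 43.8% of all. The entries are not independent, since 2 Aldoa windows overlap and the same match counts in both. Because CACGTG contains ACGTG on both strands, each E-box also counts for that search. Capitals below mark these letters or their reverse complements, and each sequence runs 5′ to 3′ on the strand of its gene.
Ldha: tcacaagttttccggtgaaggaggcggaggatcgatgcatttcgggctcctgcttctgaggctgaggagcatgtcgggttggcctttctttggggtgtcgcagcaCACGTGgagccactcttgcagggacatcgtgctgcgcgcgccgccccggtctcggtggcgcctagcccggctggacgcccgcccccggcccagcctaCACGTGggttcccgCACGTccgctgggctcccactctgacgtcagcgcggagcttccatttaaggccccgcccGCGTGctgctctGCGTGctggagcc
Tpi1: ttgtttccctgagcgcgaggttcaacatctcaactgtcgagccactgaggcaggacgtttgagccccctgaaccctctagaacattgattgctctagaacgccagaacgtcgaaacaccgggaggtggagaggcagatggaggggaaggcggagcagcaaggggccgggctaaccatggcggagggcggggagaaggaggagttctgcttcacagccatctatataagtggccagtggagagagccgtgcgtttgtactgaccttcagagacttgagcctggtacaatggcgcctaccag
Slc2a1: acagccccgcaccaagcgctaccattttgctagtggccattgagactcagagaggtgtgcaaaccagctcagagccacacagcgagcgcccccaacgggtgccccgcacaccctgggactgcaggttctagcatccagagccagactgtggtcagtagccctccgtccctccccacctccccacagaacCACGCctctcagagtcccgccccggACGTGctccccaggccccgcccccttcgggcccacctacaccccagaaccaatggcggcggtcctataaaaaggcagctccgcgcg
The Ldha window (chr7:46845554-46845853, plus strand) holds CACGTG with first bases at -145 and -48 from the start, and 7 matches to the core letters in all. Each E-box gives 2 of these matches, because it is read on both strands. The other Ldha entry (chr7:46846832-46847131), not shown, holds 2 core matches and no E-box. The Tpi1 window (chr6:124814109-124814408, minus strand) holds neither motif, and the Slc2a1 window (chr4:119108495-119108794, plus strand) holds 2 core matches and no E-box. A match describes letters only, and a window without one says nothing about the factor.

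Slc2a3 encodes GLUT3, a transporter of high glucose affinity that is abundant in neurons and in activated lymphocytes, and lies at chr6:122727809-122801640 (mm10). Its level was 26.7 and 11.9 CPM in Smarca4+/- CC, 42.9 and 55.6 in Smarca4+/+ CC, 10.6 and 11.3 in Smarca4+/- CB and 10.1 and 5.83 in Smarca4+/+ CB, from 20, 10, 24 and 34 counts in the CC libraries and 125 to 236 in the CB libraries. Both Smarca4+/+ CC libraries were above every other library, and the lower Smarca4+/- CC library was close to the CB level. Slc2a3 was 6.20-fold higher in CC than in CB in Smarca4+/+ (log2 fold change 2.63, SE 0.55, 95% interval 1.42 to 3.84, edgeR adjusted p = 0.0167). In Smarca4+/- the same difference was 0.80 (SE 0.56, edgeR adjusted p = 0.470). The heterozygote against wild type in CC differed by -1.37 (SE 0.58, unadjusted p = 0.0386, edgeR adjusted p = 0.303) and in CB by 0.47 (SE 0.50, edgeR adjusted p = 1), and the genotype by fraction interaction was -1.83 (SE 0.77, unadjusted p = 0.0354, edgeR adjusted p = 0.517). The call in Smarca4+/+ was lost in the fit of only the 2 groups compared (edgeR adjusted p = 0.0661). It was also lost without Smarca4+/- CB replicate 1 (0.0528) or 2 (0.0546) and without Smarca4+/+ CB replicate 1 (0.0978) or 2 (0.196), all edgeR adjusted p, while the log2 fold change stayed between 2.35 and 3.10 with each library left out in turn.

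Markers of T cells, macrophages and red cells stood higher in the CC libraries than in the CB libraries. The 10 T cell markers summed to 240 and 202 CPM in Smarca4+/- CC, 493 and 528 in Smarca4+/+ CC, 113 and 112 in Smarca4+/- CB and 135 and 136 in Smarca4+/+ CB. Most of the CB sum was Lck (108 to 132 CPM in CB), while Cd3e had 34.7 and 7.11 CPM in Smarca4+/- CC, 50.03 and 98.1 in Smarca4+/+ CC, 0.158 and 0.576 in Smarca4+/- CB and 0 in both Smarca4+/+ CB libraries. Themis and Il7r were also at 0 in both Smarca4+/+ CB libraries. The 14 macrophage markers summed to 4612 and 2030 CPM in Smarca4+/- CC and 3672 and 3927 in Smarca4+/+ CC, against 141 and 90.0 in Smarca4+/- CB and 67.6 and 326 in Smarca4+/+ CB, with Marco at 0 in 3 of the 4 CB libraries. The 10 red cell markers summed to 505 and 140 CPM in Smarca4+/- CC, 743 and 817 in Smarca4+/+ CC, 13.4 and 9.99 in Smarca4+/- CB and 19.4 and 15.2 in Smarca4+/+ CB. Smarca4+/- CC replicate 2, which had the lowest sums of all 3 lists and the lowest Slc2a3 among the CC libraries, also correlated best with the CB mean across genes (0.841, against 0.752 to 0.757 for the other CC libraries). The neutrophil markers summed to 363 and 73.5 CPM in Smarca4+/- CC and to 0 in both Smarca4+/+ CC libraries, where Slc2a3 was highest. The plasma cell markers summed to 514 and 428 CPM in Smarca4+/- CC and 543 and 502 in Smarca4+/+ CC. In CB the plasma cell sums were 584 and 517 CPM in Smarca4+/- and 512 and 473 in Smarca4+/+. The part of any of these cells in the Slc2a3 difference was not tested. In bulk RNA, more cells of a type and more transcript per cell cannot be told apart.

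**Figure D2:**
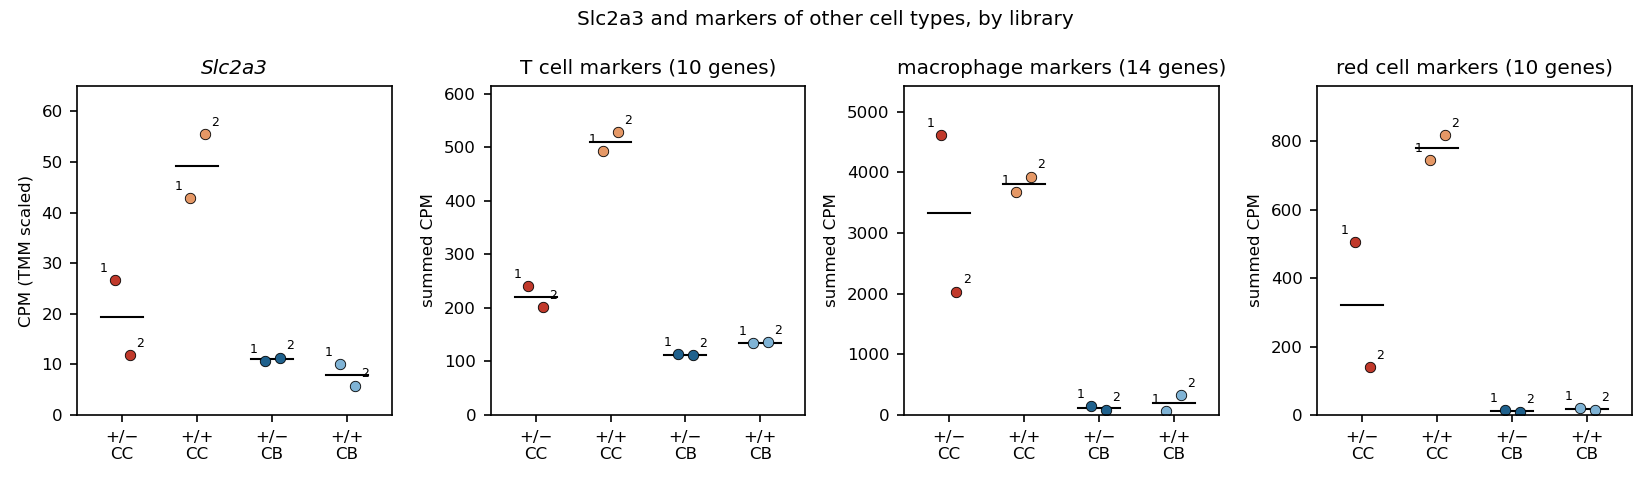
Slc2a3 in TMM-scaled CPM and the summed CPM of the T cell, macrophage and red cell marker lists (y axes, from 0) in each library, numbered by replicate, with the group mean as a bar. All 4 are higher in CC than in CB, and Smarca4+/- CC replicate 2 (11.9 CPM Slc2a3) has the lowest CC value in each panel. Neutrophil and plasma cell markers are not shown.

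Slc2a1 encodes GLUT1, the widely expressed transporter behind basal glucose uptake, and lies at chr4:119108711-119137983. It had 13.4 and 9.48 CPM in Smarca4+/- CC, 23.2 and 6.54 in Smarca4+/+ CC, 19.7 and 23.2 in Smarca4+/- CB and 22.4 and 17.9 in Smarca4+/+ CB. The CC values rest on 4 to 13 counts, and the Smarca4+/+ CC libraries span the whole range of the other groups. CC differed from CB by -0.92 (SE 0.60, edgeR adjusted p = 0.444) in Smarca4+/- and by -0.46 (SE 0.61, edgeR adjusted p = 0.670) in Smarca4+/+, and the genotypes differed by -0.37 in CC and 0.09 in CB (edgeR adjusted p = 0.841 and 1).

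The division of transcript between the transporters differed by fraction in these libraries. Per kb, Slc2a3 made up 49.2% and 37.7% of the Slc2a1 and Slc2a3 sum in Smarca4+/- CC, 47.2% and 80.4% in Smarca4+/+ CC, 20.7% and 19.1% in Smarca4+/- CB and 17.8% and 13.6% in Smarca4+/+ CB. All 4 CC shares were above all 4 CB shares, while the genotypes overlapped in CC. On the counts themselves, exact binomial 95% intervals were 47.2% to 82.7% and 30.8% to 78.5% in Smarca4+/- CC, 47.5% to 79.8% and 75.2% to 97.1% in Smarca4+/+ CC, and between 20.9% and 39.1% in CB. They cover counting error only and are too narrow, because 83.6% to 92.1% of the genes with 2 to 40 counts in a CC library had even counts, and 78.1% to 83.5% in a CB library. Counts that rise in steps of 2 hold fewer independent observations than their number. This applies to every low count given here, and why the counts were even was not tested. Of 11 other glucose and hexose transporters, 3 (Slc2a6, Slc2a8 and Slc2a9) were abundant enough to test and none passed in any comparison by edgeR, DESeq2 or limma-voom, nor at an unadjusted p under 0.05. Slc2a2, Slc2a4, Slc2a5, Slc2a10, Slc2a12, Slc5a1 and Slc5a2 had 0 counts in all 8 libraries.

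**Figure D3:**
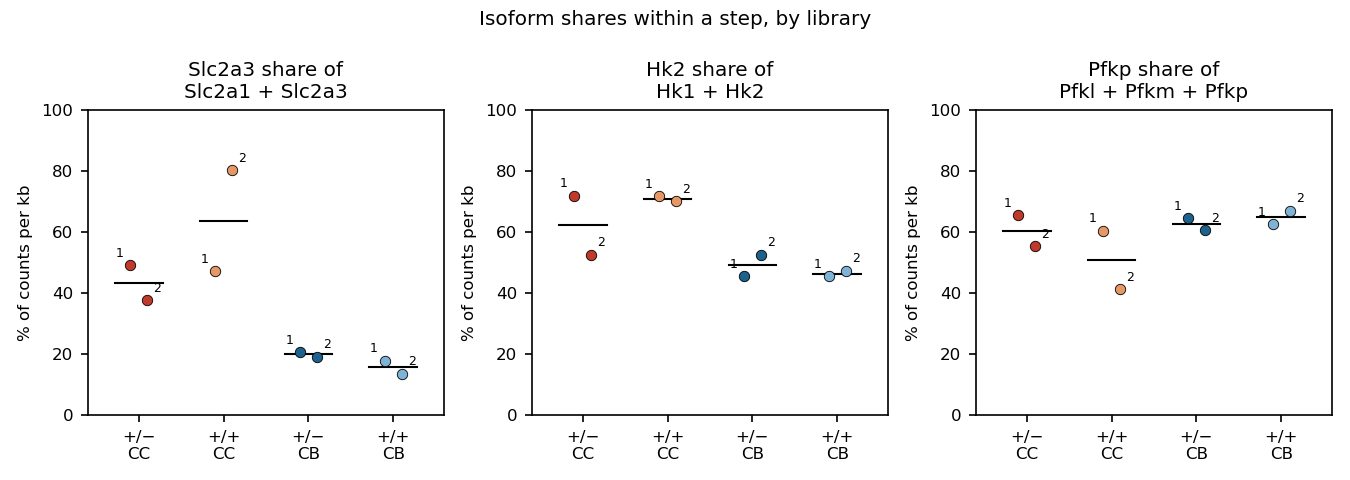
Share of counts per kb (percent, y axis from 0 to 100) that Slc2a3 takes of Slc2a1 and Slc2a3, Hk2 of Hk1 and Hk2, and Pfkp of Pfkl, Pfkm and Pfkp, in each library, numbered by replicate, with the group mean as a bar. The Slc2a3 share is 37.7% to 80.4% in CC and 13.6% to 20.7% in CB, and the Hk2 share 52.6% to 72.0% in CC and 45.5% to 52.7% in CB.

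Hexokinase 1, the constitutive isoform bound to mitochondria, is encoded by Hk1 at chr10:62268855-62379908. It had 40.1 and 42.7 CPM in Smarca4+/- CC, 32.2 and 27.8 in Smarca4+/+ CC, 43.9 and 37.7 in Smarca4+/- CB and 47.6 and 40.8 in Smarca4+/+ CB. The Smarca4+/+ CC pair was below all other libraries, but the difference of CC from CB there was -0.56 (SE 0.36, edgeR adjusted p = 0.364) and that between genotypes in CC 0.47 (SE 0.38, edgeR adjusted p = 0.556). Hk2, the inducible isoform known as a target of Myc and hypoxia-inducible factor, lies at chr6:82725025-82774454. Its level was 72.1 and 33.2 CPM in Smarca4+/- CC, 57.2 and 45.8 in Smarca4+/+ CC, 25.7 and 29.3 in Smarca4+/- CB and 27.8 and 25.7 in Smarca4+/+ CB. Every CC library was above every CB library. Of all genes, 20.2% in Smarca4+/- and 18.2% in Smarca4+/+ were above in CC without overlap. The difference of CC from CB was 0.93 in Smarca4+/- (SE 0.40, unadjusted p = 0.0404, edgeR adjusted p = 0.248) and 0.94 in Smarca4+/+ (SE 0.41, unadjusted p = 0.0420, edgeR adjusted p = 0.198), so it did not pass in either genotype. The genotypes differed by 0.03 in CC and 0.04 in CB, with 95% intervals of -0.92 to 0.98 and -0.77 to 0.85.

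Hk2 took 72.0% and 52.6% of the Hk1 and Hk2 sum per kb in Smarca4+/- CC and 71.8% and 70.2% in Smarca4+/+ CC, against 45.6% and 52.7% in Smarca4+/- CB and 45.5% and 47.4% in Smarca4+/+ CB. The libraries did not overlap in Smarca4+/+ and did in Smarca4+/-. Hk3, a hexokinase of myeloid cells, had 29.4 and 11.9 CPM in Smarca4+/- CC, 3.57 and 0 in Smarca4+/+ CC, 2.11 and 1.63 in Smarca4+/- CB and 0.610 and 4.06 in Smarca4+/+ CB. Its difference of CC from CB in Smarca4+/- was 3.45 (SE 1.10, edgeR adjusted p = 0.122). The 8 neutrophil markers summed to 363 and 73.5 CPM in Smarca4+/- CC, 0 in both Smarca4+/+ CC libraries, 12.3 and 4.71 in Smarca4+/- CB and 5.59 and 0 in Smarca4+/+ CB. The 14 macrophage markers summed to 4612 and 2030 CPM in Smarca4+/- CC and 3672 and 3927 in Smarca4+/+ CC. In CB the macrophage sums were 141 and 90.0 CPM in Smarca4+/- and 67.6 and 326 in Smarca4+/+. The part of neutrophils or macrophages in the Hk3 values was not tested.

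Pfkl encodes the liver type subunit of phosphofructokinase, the enzyme of the committed step, and lies at chr10:77986947-78010083. It had 37.4 and 117 CPM in Smarca4+/- CC, 25.0 and 83.4 in Smarca4+/+ CC, 44.6 and 51.8 in Smarca4+/- CB and 51.0 and 41.7 in Smarca4+/+ CB. Replicate 2 was more than 3 times replicate 1 in both CC groups, so that the CC libraries lay on either side of the CB libraries. CC differed from CB by 0.69 (SE 0.51) in Smarca4+/- and 0.24 (SE 0.54) in Smarca4+/+, and the genotypes by 0.51 (SE 0.57) in CC, with edgeR adjusted p = 0.497, 0.813 and 0.685 in that order. Pfkp, the platelet type subunit, was the main one in 7 of the 8 libraries, with 65.6% and 55.3% of the counts per kb of the 3 subunit genes in Smarca4+/- CC, 60.5% and 41.4% in Smarca4+/+ CC, 64.7% and 60.7% in Smarca4+/- CB and 62.7% and 67.1% in Smarca4+/+ CB. It had 184 and 292 CPM in Smarca4+/- CC and 143 and 128 in Smarca4+/+ CC, without overlap (log2 fold change 0.82, SE 0.25, unadjusted p = 0.00764, edgeR adjusted p = 0.191).

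Aldoa, the ubiquitous aldolase, lies at chr7:126795234-126800751. It had 260 and 324 CPM in Smarca4+/- CC, 375 and 530 in Smarca4+/+ CC, 302 and 292 in Smarca4+/- CB and 308 and 291 in Smarca4+/+ CB. The 4 CB libraries lay within 291 and 308 CPM, and the Smarca4+/+ CC pair was above all others. CC differed from CB by 0.59 in Smarca4+/+ (SE 0.21, unadjusted p = 0.0147, edgeR adjusted p = 0.109) and by -0.02 in Smarca4+/- (SE 0.21, edgeR adjusted p = 0.968). The genotypes differed by -0.63 in CC (SE 0.21, unadjusted p = 0.0126, edgeR adjusted p = 0.216) and by -0.01 in CB (SE 0.20), and the interaction was -0.62 (SE 0.29, edgeR adjusted p = 0.553). Aldoa made up 91.6% to 98.7% of the counts per kb of Aldoa and Aldoc in the 8 libraries.

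Tpi1 encodes triosephosphate isomerase, which joins the branches that aldolase makes, and lies at chr6:124810586-124814296. Its level was 168 and 190 CPM in Smarca4+/- CC, 92.9 and 80.1 in Smarca4+/+ CC, 186 and 169 in Smarca4+/- CB and 170 and 160 in Smarca4+/+ CB. The Smarca4+/+ CC libraries stood apart below the other 6, which lay between 160 and 190 CPM. Tpi1 fell in CC to 0.523 of its CB level in Smarca4+/+ (log2 fold change -0.93, SE 0.22, 95% interval -1.43 to -0.44, edgeR adjusted p = 0.0297), where the median of all genes was -0.19. In Smarca4+/- the difference was 0.02 (SE 0.21, 95% interval -0.44 to 0.47, edgeR adjusted p = 0.978). Between genotypes in CC, Tpi1 was 1.05 higher on the log2 scale in the heterozygote (SE 0.23, unadjusted p = 0.000809), which did not pass over all genes (edgeR adjusted p = 0.118). DESeq2 (adjusted p = 0.000119) and edgeR without the filter on low counts (adjusted p = 0.0346) called it. The difference in CB was 0.10 (SE 0.20, edgeR adjusted p = 1), and the interaction was 0.95 (SE 0.31, unadjusted p = 0.00974, edgeR adjusted p = 0.430).

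The Tpi1 call in Smarca4+/+ was lost with total count scaling (edgeR adjusted p = 0.119), in the fit of only the groups compared (0.0774), with the CB libraries thinned to 657641 counts (0.128) and in limma-voom (0.217). It was also lost without Smarca4+/- CB replicate 1 (0.0784) or 2 (0.0726), Smarca4+/+ CB replicate 1 (0.211) or 2 (0.188) and Smarca4+/+ CC replicate 2 (0.0831), while the log2 fold change kept its sign, from -1.05 to -0.84 with a library left out. A ratio within a library, chosen after the values were seen, does not depend on the scaling. Per 100 Aldoa counts there were 64.6 and 58.6 Tpi1 counts in Smarca4+/- CC, 24.8 and 15.1 in Smarca4+/+ CC, 61.4 and 57.8 in Smarca4+/- CB and 55.1 and 55.1 in Smarca4+/+ CB. Per 100 Gapdh counts there were 71.6 and 86.0 in Smarca4+/- CC, 59.1 and 37.7 in Smarca4+/+ CC, 52.2 and 53.1 in Smarca4+/- CB and 59.2 and 53.3 in Smarca4+/+ CB. Against Aldoa the Smarca4+/+ CC libraries were below all others, and against Gapdh 1 of them fell inside the CB range. Each ratio also carries the level of its denominator. In the Smarca4+/+ CC libraries Aldoa was highest (375 and 530 CPM) and Gapdh lowest (157 and 213 CPM).

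Gapdh, which encodes glyceraldehyde-3-phosphate dehydrogenase and often serves as a reference transcript, lies at chr6:125161715-125166467. It had 235 and 221 CPM in Smarca4+/- CC, 157 and 213 in Smarca4+/+ CC, 356 and 318 in Smarca4+/- CB and 287 and 301 in Smarca4+/+ CB. All 4 CC libraries were below all 4 CB libraries. Of all genes, 33.2% in Smarca4+/- and 38.5% in Smarca4+/+ were below in CC without overlap. The difference of CC from CB was -0.56 in Smarca4+/- (SE 0.20, unadjusted p = 0.0159, edgeR adjusted p = 0.160) and -0.67 in Smarca4+/+ (SE 0.20, unadjusted p = 0.00737, edgeR adjusted p = 0.0744). DESeq2 called it in Smarca4+/+ (adjusted p = 0.0162), as did edgeR without the low count filter (0.0405) and without Smarca4+/+ CC replicate 2 (0.0434). Between genotypes it differed by 0.30 (SE 0.21) in CC and 0.20 (SE 0.19) in CB. Of its 50-base windows 25.1% also occur in other genes, 213 of them pseudogenes, and it overlaps Iffo1 on the other strand (4073 counts in all), so reads could have been gained or lost there.

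Pkm encodes the pyruvate kinase of most tissues and lies at chr9:59656368-59679375. It had 343 and 359 CPM in Smarca4+/- CC, 340 and 566 in Smarca4+/+ CC, 467 and 424 in Smarca4+/- CB and 415 and 437 in Smarca4+/+ CB. The Smarca4+/- CC pair was below the CB libraries and the Smarca4+/+ CC pair on both sides of them. No difference passed: CC from CB was -0.34 (SE 0.22) in Smarca4+/- and 0.09 (SE 0.22) in Smarca4+/+, and the genotypes differed by -0.37 (SE 0.23) in CC and 0.06 (SE 0.22) in CB, with edgeR adjusted p = 0.438, 0.832, 0.449 and 1. The counts are per gene, so the M1 and M2 splice forms were not separated. Of the 50-base windows of Pkm 25.8% occur in other genes, and 1295 counts went to Gm49759, which overlaps it on its own strand. For Slc2a3 and Tpi1 the share of such windows was 1.26% and 4.18%. Pklr, the kinase of liver and red cells, had 0 and 11.9 CPM in Smarca4+/- CC, 0 and 6.54 in Smarca4+/+ CC, 0.211 and 0 in Smarca4+/- CB and 0 in both Smarca4+/+ CB libraries.

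Ldha, the lactate dehydrogenase subunit that favours lactate formation, lies at chr7:46841475-46855627 and has the E-box letters shown above. It had 256 and 287 CPM in Smarca4+/- CC, 236 and 301 in Smarca4+/+ CC, 265 and 228 in Smarca4+/- CB and 243 and 219 in Smarca4+/+ CB. In each comparison of 2 groups the libraries overlapped. The largest of its differences was that of CC from CB in Smarca4+/+, 0.22 (SE 0.20, 95% interval -0.23 to 0.66, edgeR adjusted p = 0.536), and the genotypes differed by 0.02 in CC (95% interval -0.44 to 0.47) and 0.09 in CB (95% interval -0.33 to 0.52). Ldhb, the subunit of oxidative tissues, had 0 counts in 7 libraries and 6 counts in Smarca4+/+ CC replicate 2.

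Counted over the 10 genes, 2 passed in CC against CB in Smarca4+/+, 1 higher (Slc2a3) and 1 lower (Tpi1), where 7.49% of all genes passed, 3.72% higher and 3.76% lower. At an unadjusted p under 0.05 there were 5 (Hk2, Slc2a3, Tpi1, Gapdh and Aldoa), where 23.3% of all genes were, and DESeq2 called the same 5 and 16.7% of all genes, while limma-voom called Slc2a3 alone and 5.39% of all genes. The median log2 fold change of the 10 was 0.15, against -0.19 for all genes tested. By libraries, 3 of the 10 were above without overlap (Slc2a3, Hk2, Aldoa), 3 below (Hk1, Gapdh, Tpi1) and 4 overlapped, where 56.7% of all genes did not overlap, 18.2% above and 38.5% below. How many of all genes had the Smarca4+/+ CC pair apart from every other library was not counted. Neither was the share with all CC libraries apart from all CB libraries. In Smarca4+/-, CC against CB gave 0 genes passing by edgeR, DESeq2 or limma-voom and 2 at an unadjusted p under 0.05 (Hk2 and Gapdh). Of all genes 3.67% passed by edgeR, 2.17% higher and 1.5% lower, 11.4% by DESeq2 and 3.01% by limma-voom, and 18.2% had an unadjusted p under 0.05, a share near that of the 10 genes. The median there was 0.02, against -0.08 for all genes, with 2 genes above (Slc2a3, Hk2), 3 below (Slc2a1, Gapdh, Pkm) and 5 overlapping, where 53.4% of all genes did not overlap, 20.2% above and 33.2% below. The numbers of all genes called higher and lower moved with the scaling: 484 and 489 in Smarca4+/+ turned into 568 and 289 under total count scaling, and 282 and 195 in Smarca4+/- into 305 and 122 under RLE scaling or 326 and 99 under total count scaling. The comparisons in the 2 genotypes do not share libraries, but each shares its libraries with the genotype comparisons below.

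**Figure D4:**
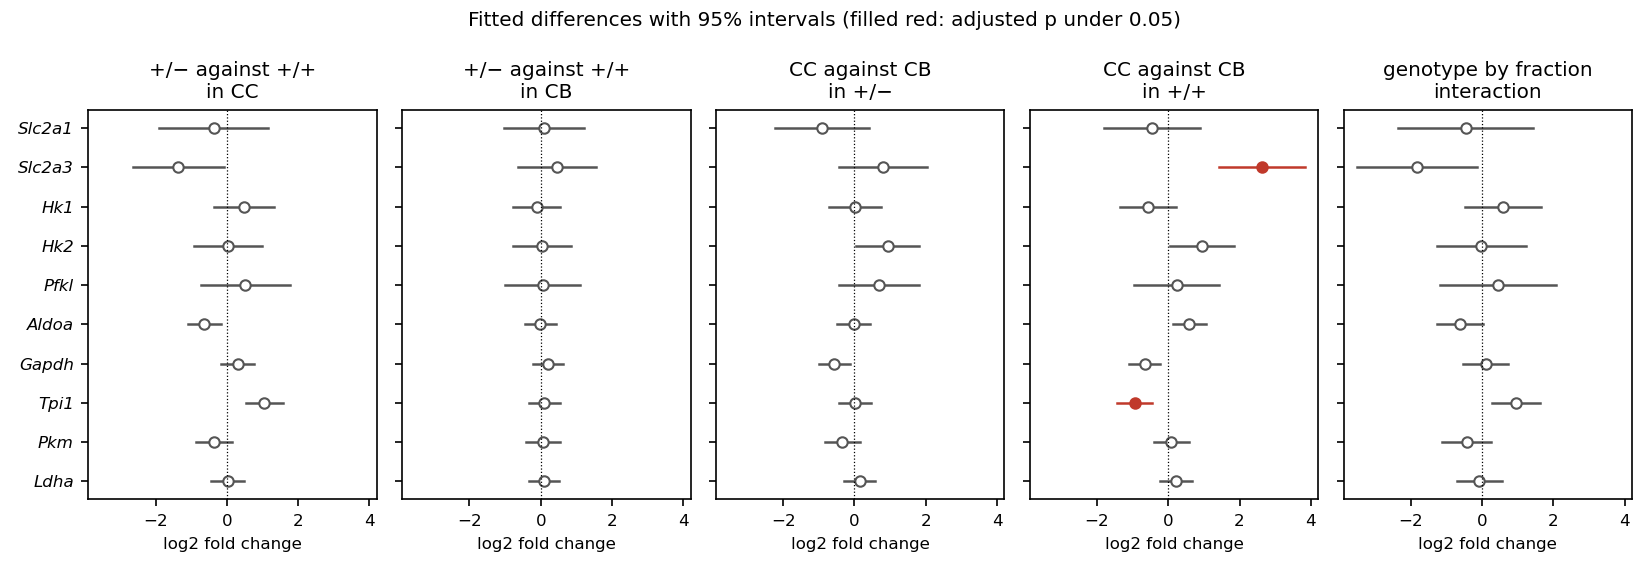
Log2 fold change (x axis) of the 10 genes with 95% intervals from the edgeR fit in 5 comparisons, filled red where the adjusted p was under 0.05. Slc2a3 (2.63) and Tpi1 (-0.93) in CC against CB of Smarca4+/+ are the filled points.

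Between genotypes 0 of the 10 passed in either fraction by edgeR. In CC 3 had an unadjusted p under 0.05 (Slc2a3, Tpi1 and Aldoa), DESeq2 called Tpi1 and Aldoa (adjusted p = 0.0272 for Aldoa) and limma-voom 0, where edgeR called 0.0231% of all genes, DESeq2 6.51% and limma-voom 0%, and 15.2% had an unadjusted p under 0.05. The median was 0.02, against 0.03 for all genes, and 3 genes were above (Hk1, Gapdh, Tpi1), 2 below (Slc2a3, Aldoa) and 5 overlapped, where 32.6% of all genes did not overlap, 18.1% above and 14.4% below. In CB no gene of the 10 had an unadjusted p under 0.05, and edgeR, DESeq2 and limma-voom called 0 of them. Of all genes 0.646% had such a p, and edgeR called 0%, DESeq2 0.0231% and limma-voom 0.0385%. The CB differences ran from -0.12 (Hk1) to 0.47 (Slc2a3), with a median of 0.08 against -0.00435 for all genes, and Slc2a3 and Gapdh were above without overlap and 0 below, where 32.1% of all genes did not overlap, 16.2% above and 15.8% below. For the interaction edgeR called 0 of the 10 and 0% of all genes, 2 had an unadjusted p under 0.05 (Slc2a3 and Tpi1), DESeq2 called Tpi1 (adjusted p = 0.00851) and limma-voom 0, where 9.19% of all genes had such an unadjusted p, DESeq2 called 2.61% and limma-voom 0%. The median was -0.05, against 0.10 for all genes.

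Among the other genes of glucose metabolism, those that passed were regulators. Myc, which drives glycolytic genes and growth, had 90.8 and 121 CPM in Smarca4+/- CC, 129 and 154 in Smarca4+/+ CC, 27.6 and 24.7 in Smarca4+/- CB and 23.8 and 28.9 in Smarca4+/+ CB, without overlap between fractions. It rose in CC in both genotypes, by 2.02 in Smarca4+/- (SE 0.28, edgeR adjusted p = 0.00457) and 2.42 in Smarca4+/+ (SE 0.29, edgeR adjusted p = 0.00125) on the log2 scale. The Smarca4+/- call was lost without Smarca4+/- CB replicate 1 (edgeR adjusted p = 0.0786) or 2 (0.0985). Akt1, a kinase that promotes glucose uptake, had 236 and 203 CPM in Smarca4+/- CC, 166 and 186 in Smarca4+/+ CC, 382 and 390 in Smarca4+/- CB and 367 and 378 in Smarca4+/+ CB. It fell in CC, by 0.82 in Smarca4+/- (SE 0.18, edgeR adjusted p = 0.0326) and by 1.08 in Smarca4+/+ (SE 0.19, edgeR adjusted p = 0.00683). The Akt1 call in Smarca4+/- held in 7 of 19 alternatives and in no setting that left out a library of Smarca4+/- CC or of either CB group (edgeR adjusted p from 0.0561 to 0.297). In Smarca4+/+ it was lost without Smarca4+/+ CB replicate 1 (edgeR adjusted p = 0.0666) or 2 (0.0870). Txnip, which restrains glucose uptake by promoting removal of GLUT1 from the surface, had 124 and 61.7 CPM in Smarca4+/- CC, 193 and 268 in Smarca4+/+ CC, 75.2 and 91.4 in Smarca4+/- CB and 85.2 and 85.0 in Smarca4+/+ CB. It rose in CC in Smarca4+/+ (1.44, SE 0.31, edgeR adjusted p = 0.0190), a call lost without Smarca4+/+ CB replicate 1 (edgeR adjusted p = 0.142) or 2 (0.138) or Smarca4+/+ CC replicate 2 (0.0744). Between genotypes in CC it differed by -1.32 (SE 0.33, unadjusted p = 0.00200, edgeR adjusted p = 0.149), and the interaction was -1.29 (SE 0.44, edgeR adjusted p = 0.437). Hif1a had 69.4 and 93.7 CPM in Smarca4+/- CC and 130 and 147 in Smarca4+/+ CC, without overlap (-0.76, SE 0.26, edgeR adjusted p = 0.220).

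By list, 16 of 17 regulators were tested, and 1 rose and 1 fell in Smarca4+/- CC, while 2 rose and 1 fell in Smarca4+/+ CC, with medians of -0.19 and -0.08 beside -0.08 and -0.19 for all genes. Of 18 other glycolytic enzymes 11 were tested, of 18 genes of pyruvate and lactate fate 16, of 7 of the pentose phosphate pathway 7, of 7 of gluconeogenesis 3 and of 17 targets of hypoxia-inducible factor outside glycolysis 11, and edgeR called none of them in any of the 5 comparisons. At an unadjusted p under 0.05 in CC against CB there were 3 other glycolytic enzymes in Smarca4+/- (Pklr, Aldoc, Hk3) and 2 in Smarca4+/+ (Pklr, Pfkp), of which DESeq2 called Aldoc and Hk3 in Smarca4+/- and limma-voom Pklr in Smarca4+/+. In the fate list there were 2 in each genotype, Pdk1 and Mpc1 in Smarca4+/- and Pdk1 and Bsg in Smarca4+/+, and DESeq2 called Pdk1 and Bsg in Smarca4+/- and Pdk1, Bsg and Pdha1 in Smarca4+/+. Among the targets of hypoxia-inducible factor there were 2 in Smarca4+/- (P4ha1 and Ddit4, both called by DESeq2) and 3 in Smarca4+/+ (Ankrd37, Ddit4 and Bnip3l, of which DESeq2 called Ddit4 and Bnip3l). There were 0 in the pentose phosphate and gluconeogenesis lists, where DESeq2 called Pgls in Smarca4+/+. Of all genes, 18.2% in Smarca4+/- and 23.3% in Smarca4+/+ had such a p in CC against CB. DESeq2 called 11.4% and 16.7% of all genes there, and limma-voom 3.01% and 5.39%. Between genotypes in CC the unadjusted p was under 0.05 for Pfkp, Hk3, Mpc1, Bnip3l and Mxi1, and for 15.2% of all genes. DESeq2 called Pfkp and Mpc1 among them, and 6.51% of all genes. In CB 0 genes of these lists had such an unadjusted p, and 0.646% of all genes did. Pdk1, a kinase that keeps pyruvate out of mitochondria, was at 54.7 and 40.3 CPM in Smarca4+/- CC and 32.2 and 52.3 in Smarca4+/+ CC, against 17.8 and 19.8 in Smarca4+/- CB and 23.1 and 19.7 in Smarca4+/+ CB (1.34, SE 0.40, edgeR adjusted p = 0.0982 in Smarca4+/-, and 0.99, SE 0.41, edgeR adjusted p = 0.179 in Smarca4+/+). The medians of CC against CB were -0.18 in Smarca4+/- and 0.21 in Smarca4+/+ for the other enzymes, -0.06 and 0.22 for the fate list and -0.26 and -0.23 for the pentose phosphate pathway. For the targets of hypoxia-inducible factor they were 0.22 and 1.08, where Bnip3l in Smarca4+/+ (1.47, SE 0.47, edgeR adjusted p = 0.0869) and P4ha1 in Smarca4+/- (2.32, SE 0.74, edgeR adjusted p = 0.120) had the smallest p. None of the list medians of CC against CB changed when genes at 0 counts in a group were set at their bound of 3 counts. Eno1, Gpi1 and Pgk1 carry other steps of glycolysis. In Smarca4+/- CC they had 123 and 159, 290 and 257, and 10.7 and 23.7 CPM. In Smarca4+/+ CC they had 145 and 98.1, 334 and 206, and 21.4 and 16.3 CPM. In CB they had 158 to 162 CPM, 309 to 313 CPM and 28.7 to 30.1 CPM in Smarca4+/- and 156 to 158 CPM, 290 to 312 CPM and 24.6 to 26.4 CPM in Smarca4+/+.

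**Figure D5:**
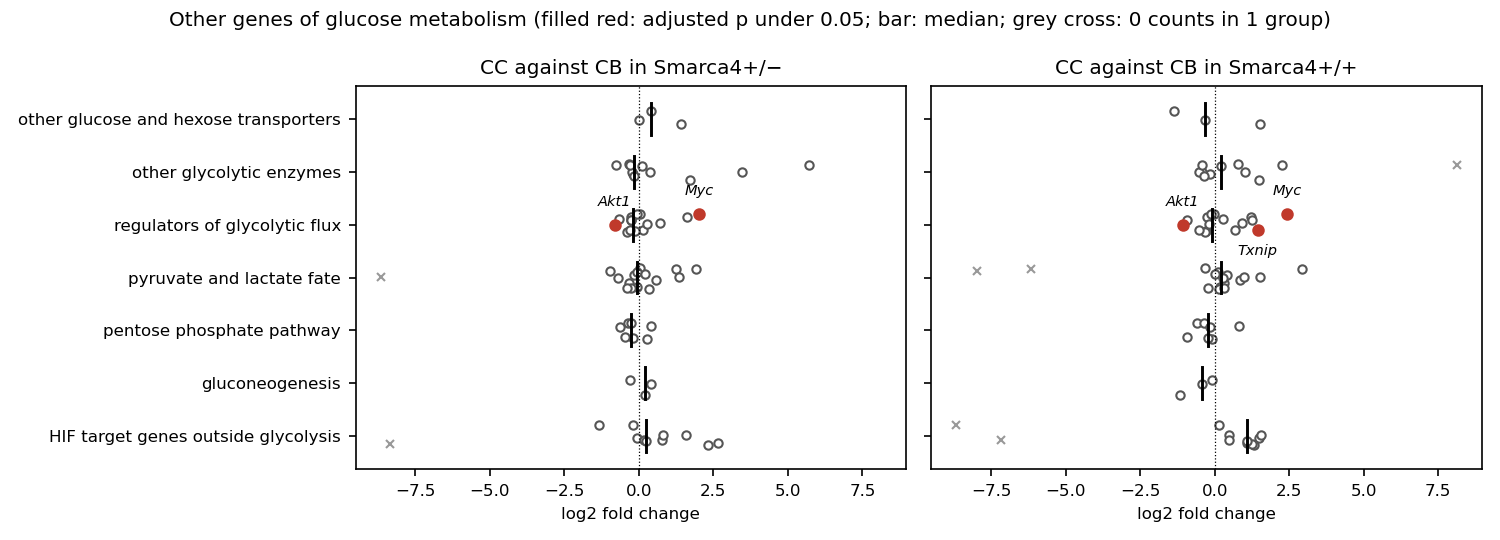
Log2 fold change of CC against CB (x axis) in Smarca4+/- and Smarca4+/+ for the tested genes of 7 lists of glucose metabolism, with the list's median as a bar and genes of adjusted p under 0.05 filled red. Genes with 0 counts in 1 of the groups compared are grey crosses, whose position depends on the fitting and is no measured fold. The filled points are Myc and Akt1 in both genotypes and Txnip in Smarca4+/+, and the medians lie between -0.44 and 0.40 except for the targets of hypoxia-inducible factor in Smarca4+/+ (1.08).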

How the data were processed

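The deposited values are raw counts per gene in 8 libraries, not normalized by the authors. Per the submitters' processing notes the tools were FastQC, STAR, featureCounts of Subread and R 4.2.1, with build mm10. No source used here gives the other tool versions, the strand setting or how multimapping reads were counted. The other unit deposited by the authors is a gene length in bases, used only for levels per kb. Of 55421 identifiers, 55154 had a symbol in GENCODE M21.

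Counts were fitted in R 4.3.3 with edgeR 4.0.16: filterByExpr (minimum count 10, minimum total 15), TMM scaling, and a quasi-likelihood fit of group means over all 8 libraries (4 residual degrees of freedom). Tests of the 5 contrasts were 2-sided, adjusted by Benjamini-Hochberg, with a threshold of 0.05. Each SE is the fold change divided by the root of its F statistic. A total of 3 counts corresponds to 3.56 to 5.36 CPM in a CC library and 0.140 to 0.158 in a CB library, counting error only. The fit was also run on simulated counts, whose outcome is not reported here. A difference that did not pass is not shown to be absent. Alternatives were DESeq2 1.42.0, limma-voom (3.58.1), other scalings and filters, a replicate block, fewer groups, thinned CB libraries and each library left out. One added after seeing the data divided counts by 2, because most low counts were even. Equal replicate numbers were not shown to pair libraries (correlations of deviations -0.046 to 0.053). These correlations cannot exclude a pairing, because noise in the CC libraries could hide it. The rule for naming genes besides the 10 was, per list, those that passed (up to 4) or, where none did, up to 2 of smallest p. Some genes outside this rule are also named. Among them are list genes with an unadjusted p under 0.05 or a DESeq2 or limma-voom call, and Hif1a, Eno1, Gpi1 and Pgk1. Genes, shares and enzymes of the same step named beside a member were chosen after their values were seen. The 10 genes and the lists were chosen with earlier results of these data known.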

Additional observations from a re-analysis of the deposited data

Results flagged for a closer look

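By libraries, Slc2a3 stood on opposite sides with genotype in the 2 fractions, but neither genotype difference passed the test. The log2 fold change was -1.37 in CC (SE 0.58, edgeR adjusted p = 0.303) and 0.47 in CB (SE 0.50). Of all genes, 14.4% were below without overlap in CC and 16.2% above without overlap in CB. Both Smarca4+/- CC libraries (26.7 and 11.9 CPM) were below both Smarca4+/+ CC libraries (42.9 and 55.6), and both Smarca4+/- CB libraries (10.6 and 11.3) were above both Smarca4+/+ CB libraries (10.1 and 5.83). The difference between the genotype effects was -1.83 on the log2 scale (SE 0.77, unadjusted p = 0.0354, edgeR adjusted p = 0.517), so it did not pass over all genes. With each library left out in turn it ran from -2.54 to -1.37. T cell, macrophage and red cell marker sums were lowest among the CC libraries in Smarca4+/- CC replicate 2, where Slc2a3 was also lowest. The neutrophil sum was 0 in both Smarca4+/+ CC libraries, against 363 and 73.5 CPM in Smarca4+/- CC. The part of any of these cells in the difference between the genotype effects was not tested.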

How the results depend on the processing

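Low CC counts and 2 libraries per group limit every value here. Members called in CC against CB in Smarca4+/+ numbered 2, but 1 with total count scaling or limma-voom, 0 with only the groups compared, 5 with DESeq2 and 0 to 3 with a library left out. Heterozygote against wild type in CC gave 0, but 1 with no low count filter and 2 by DESeq2, and the interaction 0, but 1 with DESeq2. Equal replicate numbers were not shown to pair libraries, and with a replicate block 2 members were called in Smarca4+/+ (edgeR adjusted p = 0.0248 for Slc2a3 and 0.0392 for Tpi1). Aldoa in Smarca4+/+ passed with thinned CB libraries (edgeR adjusted p = 0.0489), without Smarca4+/+ CC replicate 1 (0.0415) and in DESeq2 (0.00188), and Hk2 in DESeq2 (0.0496). RLE and total count scaling moved the median of all genes by 0.126 and 0.187 in CC against CB of Smarca4+/+ and by 0.116 and 0.118 in Smarca4+/-.

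All genes called in CC against CB numbered 477 in Smarca4+/- and 973 in Smarca4+/+, 1487 and 2167 with DESeq2, 1142 and 1651 without the low count filter, 308 and 292 with only the groups compared, 320 and 645 with thinned CB libraries, and 0 to 932 and 222 to 1413 with a library left out. Heterozygote against wild type in CC called 3, but 846 with DESeq2, 323 without the filter, 5 thinned, 0 with limma-voom or without ribosomal, immunoglobulin and mitochondrial genes, and 4 with the replicate block. In CB it called 0, but 13 without the filter, 5 with limma-voom or only the groups compared and 3 with DESeq2, and the interaction called 0, but 339, 46 and 1 with DESeq2, no filter and the block. With counts divided by 2, added after seeing the data, the members called were the same, while all genes called numbered 979 in Smarca4+/- and 1369 in Smarca4+/+ in CC against CB, 29 between genotypes in CC, 0 in CB and 3 for the interaction.

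Of 50 differences of single members, 25 changed sign under at least 1 setting, in 65 values in all, none of them past the test before or after. In Smarca4+/- CC against CB these were Aldoa at 0.092 with RLE, total counts or DESeq2, 0.078 with the stricter filter and 0.14 thinned, Hk1 at -0.016 and Tpi1 at -0.022 without the filter, and Tpi1 at -0.0021 thinned. In heterozygote against wild type in CB they were Aldoa at 0.057 with total counts, and with thinned libraries Slc2a1 at -0.42, Hk1 at 0.21, Hk2 at -0.16, Aldoa at 0.076, Pkm at -0.022 and Ldha at -0.027. In CC Hk2 was at -0.0027 with the block and -0.092 with limma-voom. In Smarca4+/+ Hk1 was at 0.0059 thinned. The interaction was 0.00013 for Hk2 without ribosomal, immunoglobulin and mitochondrial genes and, thinned, 0.043 for Slc2a1, 0.18 for Hk2 and 0.031 for Ldha. With a library left out, heterozygote against wild type in CB ran from -0.049 to 0.25 for Slc2a1, -0.050 to 0.14 for Hk2, -0.067 to 0.20 for Pfkl, -0.040 to 0.017 for Aldoa, -0.0046 to 0.14 for Pkm and -0.020 to 0.20 for Ldha. In CC it ran from -1.04 to 0.78 for Slc2a1, -0.64 to 0.48 for Hk2, -0.57 to 1.64 for Pfkl, -0.70 to 0.042 for Pkm and -0.16 to 0.20 for Ldha. CC against CB ran from -0.053 to 0.20 for Hk1, -0.40 to 1.26 for Pfkl, -0.22 to 0.10 for Aldoa and -0.10 to 0.15 for Tpi1 in Smarca4+/-, and from -1.63 to 0.19 for Slc2a1, -0.90 to 0.84 for Pfkl and -0.34 to 0.40 for Pkm in Smarca4+/+. The interaction ran from -1.14 to 0.69 for Slc2a1, -0.68 to 0.43 for Hk2, -0.63 to 1.58 for Pfkl, -0.11 to 0.33 for Gapdh and -0.25 to 0.10 for Ldha. Txnip, examined after it was seen to pass in Smarca4+/+, ran from -0.45 to 0.55 in Smarca4+/- with a library left out. The cause was not tested.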

Other observations

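Aldoa and Tpi1, the genes of neighbouring steps, differed in opposite directions between Smarca4+/- and Smarca4+/+ in CC (-0.63 and 1.05 on the log2 scale), and neither passed over all genes in edgeR (adjusted p = 0.216 and 0.118). Ldha per 100 Aldoa counts was 98.5 and 88.6 in Smarca4+/- CC, 62.9 and 56.8 in Smarca4+/+ CC, 87.6 and 78.0 in Smarca4+/- CB and 78.9 and 75.2 in Smarca4+/+ CB. Pkm per 100 Aldoa counts was 132 and 111 in Smarca4+/- CC and 90.5 and 107 in Smarca4+/+ CC. In CB it was 155 and 145 in Smarca4+/- and 135 and 150 in Smarca4+/+. The Smarca4+/+ CC libraries were thus the lowest for the ratios of Tpi1, Ldha and Pkm to Aldoa. Aldoa itself was highest in these libraries (375 and 530 CPM), and the ratios were chosen after the values were seen.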
